A study of Homo sapiens with 4 samples.

Results

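The 7 human genes described here have roles in neurons and were measured in 4 RNA-sequencing libraries of A375, an established melanoma cell line. They were CHRNA3 and its neighbours CHRNA5 and CHRNB4 on chromosome 15, SSTR2, GAP43, DCLK1 and LRRC55, and they made up 7 of the 26484 gene rows of the deposited table. They had been chosen by name because several were far higher in the knockout than in the parental libraries, so their difference between the groups is given as a description, with no test.

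The parental group held 2 libraries of A375 cells with wild-type p53, numbered 1 and 2. The knockout group held 2 libraries of A375 cells in which p53 had been disrupted with CRISPR-Cas9. These carry the numbers 2 and 8 in the table and were not matched to the labelled replicates. All cells were grown in DMEM, and polyadenylated RNA was sequenced. Separate cultures or clones behind the libraries are not named in the labels, which speak of 1 knockout line, so any p-value measures only the spread between these libraries. Edited cells that kept p53 were not among the libraries, so loss of p53 cannot be told apart from editing and selection of the cells.

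Nicotinic acetylcholine receptors are pentameric cation channels opened by acetylcholine. CHRNA3, CHRNA5 and CHRNB4 encode subunits that assemble in autonomic ganglia, where an alpha3 and beta4 pair forms the binding site and alpha5 is an accessory subunit that cannot form a channel by itself. SSTR2 is an inhibitory G-protein-coupled receptor for somatostatin, GAP43 is a membrane-associated protein of growing axon tips, DCLK1 is a kinase that binds microtubules, and LRRC55 is an auxiliary subunit of the BK potassium channel. Melanocytes come from the neural crest, as autonomic neurons do.

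In GENCODE 29 (GRCh38), CHRNA5 lies at chr15:78565520-78595269 (plus strand), CHRNA3 at chr15:78593052-78621295 (minus) and CHRNB4 at chr15:78624119-78727754 (minus). SSTR2 lies at chr17:73165012-73176633 (plus), GAP43 at chr3:115623324-115721490 (plus), DCLK1 at chr13:35768652-36131306 (minus) and LRRC55 at chr11:57181747-57191717 (plus). Each count is over the exons or gene as the authors' annotation had it, which is not given in the sources used here.

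Recovered reads totalled 29230554 to 36331894 per library. Values are given below as normalized counts, which are reads divided by a size factor per library. Melanoma cell markers were present in all libraries, with SOX10 at normalized counts of 25662 to 30033, while the pigment cell genes MLANA and TYR had 0 reads in each. The knockout libraries differed from each other more than the parental ones did (chi-square of the reads per degree of freedom 61.6 against 5.57), so each knockout library is given separately.

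CHRNA3 had 0 reads in parental library 1 and 2 reads in parental library 2, while knockout library 2 had 23 and knockout library 8 had 27. As normalized counts these were 0, 1.75, 24.2 and 26.4. Both knockout libraries lay above both parental ones, and they lay close to each other. The ratio of knockout to parental reads, corrected for depth, was 26.0, with a 95% counting interval of 6.83 to 221 (exact binomial; counting error only, since reads are not independent molecules). On the scale of log2(normalized count + 1) the difference was 3.98 ± 0.73 (pooled SD within groups, n = 2 and 2). Between the knockout libraries the ratio was 0.918 (0.503 to 1.66), an interval that holds 1.

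CHRNA5, whose gene lies beside CHRNA3, had normalized counts of 265 and 316 in the parental pair, 376 in knockout library 2 and 334 in knockout library 8. It was thus well expressed with p53 intact. Both knockout values lay above both parental ones, but the gap from parental library 2 to knockout library 8 was smaller than that between the parental libraries. The log2 difference was 0.29 ± 0.15 (pooled SD, n = 2 and 2), and the ratio of reads was 1.21 (1.08 to 1.35), with an interval of 0.994 to 1.30 that holds 1 for knockout library 8 alone. Between the parental libraries the ratio was 1.19 (1.01 to 1.41), so that replicates differed by about as much as the groups. CHRNB4 had 0 reads in each of the 4 libraries, which allows a mean of up to 0.745 normalized counts over them at a floor of 3 reads. RNA of CHRNA3 was therefore detected in the knockout libraries without reads of CHRNB4, whose beta4 subunit pairs with alpha3 in ganglia. Protein was not measured.

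CHRNA5 and CHRNA3 lie on opposite strands of chromosome 15 and their gene models overlap at their far ends, at chr15:78593052-78595269 on GRCh38 (2218 bases). The library kit keeps strand, but how strand was used in counting is not given in the sources used here. Reads of CHRNA5 in the overlap could therefore enter the CHRNA3 count. CHRNA5 had 242 and 360 reads in the parental libraries and 357 and 342 in the knockout ones, and the part of its reads in the CHRNA3 count was not tested.

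The start regions of CHRNA3 and CHRNB4 are shown because only the first of these neighbours had reads in the knockout libraries. Each run gives 250 bases before to 50 bases after the RefSeq start (GRCh38.p14), 5′ to 3′ on the strand of the gene. CHRNA3 is at chr15:78620947-78621246 on the minus strand and CHRNB4 at chr15:78641161-78641460 on the minus strand. Capitals mark a match, on either strand, to a GC box (GGGCGG) or to the left part of the RE1 element that the repressor REST binds (CAGCACC).
CHRNA3: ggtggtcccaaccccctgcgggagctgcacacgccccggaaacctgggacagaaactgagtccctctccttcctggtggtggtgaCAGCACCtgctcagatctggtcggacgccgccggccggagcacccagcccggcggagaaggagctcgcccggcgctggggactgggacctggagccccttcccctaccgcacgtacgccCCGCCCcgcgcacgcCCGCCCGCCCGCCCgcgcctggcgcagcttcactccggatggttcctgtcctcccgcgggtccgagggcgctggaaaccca
CHRNB4: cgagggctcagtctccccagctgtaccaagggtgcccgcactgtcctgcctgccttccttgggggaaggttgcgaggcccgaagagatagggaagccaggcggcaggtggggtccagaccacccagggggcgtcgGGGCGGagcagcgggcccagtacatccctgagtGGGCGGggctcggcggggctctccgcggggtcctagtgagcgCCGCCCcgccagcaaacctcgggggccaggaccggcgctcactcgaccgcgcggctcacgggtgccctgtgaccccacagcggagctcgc
Both windows were rich in G and C (72.7% each, against a median of 58.7% over 35116 RefSeq start windows) and held 31 and 27 CpG pairs against a median of 14. CHRNA3 held 4 GC boxes, 3 of which overlap end to end, and CHRNB4 held 3. GC boxes occurred in 45.0% of all windows. CHRNA3 also held CAGCACC, whose first base lay at -165 (the start being position 0) and which occurred in 7.75% of all windows. It overlaps an E-box (CANNTG), a motif found in 68.7% of windows. A match is a run of letters and not a shown binding site.

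**Figure D1:**
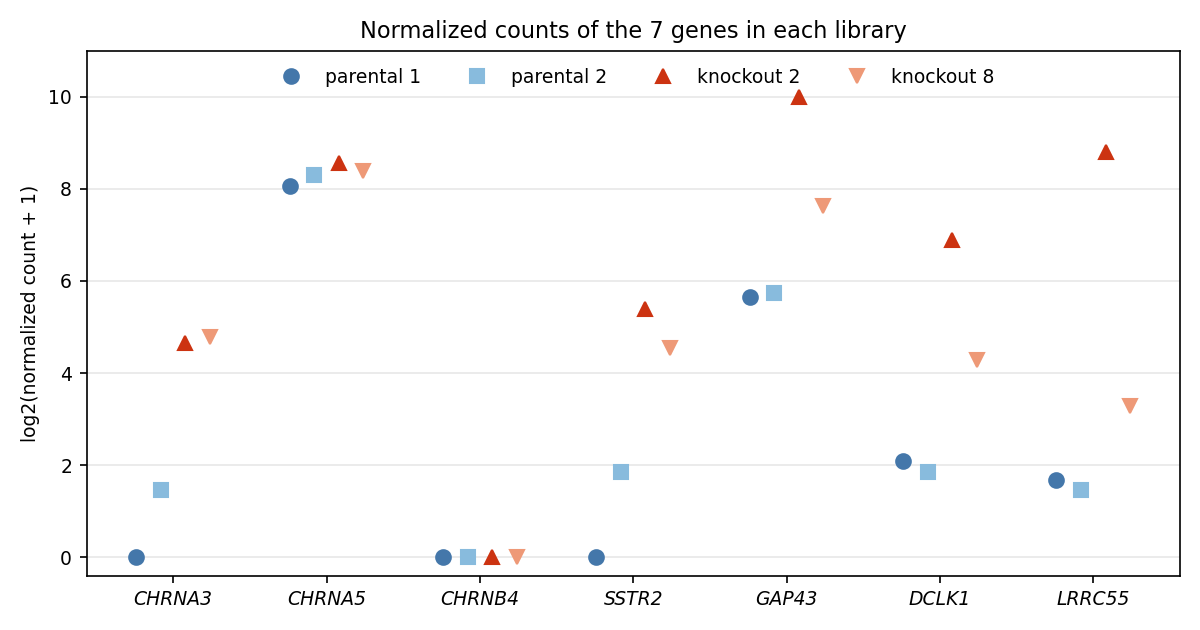
Level of each of the 7 genes, as log2(normalized count + 1), in each library (circles and squares, parental 1 and 2; triangles up and down, knockout 2 and 8). CHRNA3 and SSTR2 stand close together in both knockout libraries, LRRC55 is far higher in knockout 2 (446 normalized counts) than in knockout 8 (8.79), CHRNA5 is near its parental level and CHRNB4 is at 0 throughout.

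Among the 13 other nicotinic subunit genes, 5 passed the filter of at least 10 normalized counts in at least 2 libraries. CHRNA9, CHRNA10 and CHRNB2 had both knockout libraries above both parental ones, CHRNB1 had both below, and CHRNE overlapped. Over all 15431 genes tested, 22.8% had both knockout libraries above and 23.7% both below. CHRNA9, an alpha subunit of the inner ear, had normalized counts of 19.7 and 14.0 in the parental pair and 57.9 and 46.9 in the knockout pair (limma log2 difference 1.59, adjusted p = 0.261). CHRNB2, the partner of alpha4 in brain receptors, had 46.0 and 54.4 against 102 and 70.3 (limma adjusted p = 0.422). CHRNB1, the muscle beta subunit, had 496 and 448 against 365 and 398 (limma adjusted p = 0.457). Neither limma nor DESeq2 called any of the 5. An unadjusted limma p under 0.05 went to 2 of them, both higher (903 higher and 950 lower of all 15431).

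Per kilobase of exon (GENCODE 29), CHRNA5 and CHRNB1 were the leading nicotinic subunits in all libraries. CHRNA5 had 73.2 and 87.2 normalized counts per kb in the parental libraries and 104 and 92.2 in the knockout ones, and CHRNB1 had 114 and 104 against 84.4 and 91.8. CHRNA3 reached 5.08 and 5.53 per kb in the knockout libraries. That was below CHRNA9, at 18.3 and 14.8 per kb, and above CHRNA6, at 1.22 and 3.76 per kb. CHRNA2 and CHRNG, like CHRNB4, had 0 reads in all 4 libraries. The enzyme and carriers that define cholinergic cells, CHAT, SLC18A3 and SLC5A7, had 0 reads in every library. Of 5 tested genes for acetylcholine handling, 1 had both knockout libraries higher and 1 lower. Of 5 tested for receptor assembly, 4 had both higher and 0 lower, beside 22.8% and 23.7% of all genes tested. None of these genes was called by limma or DESeq2.

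**Figure D2:**
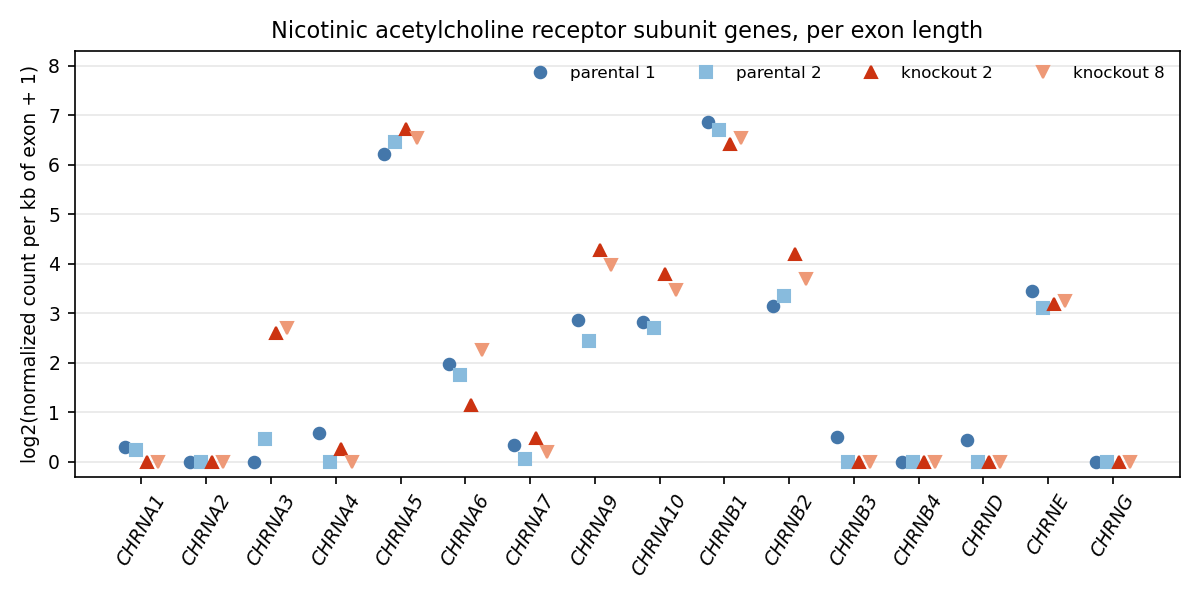
Level of the 16 nicotinic subunit genes per kilobase of exon, as log2(normalized count per kb + 1), in each library (symbols as in the plot of the 7 genes). CHRNA5 and CHRNB1 are highest, CHRNA3 appears in the knockout libraries at about 5 per kb, and CHRNB4 stays at 0.

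SSTR2 had 0 and 3 reads in parental libraries 1 and 2, while knockout library 2 had 39 and knockout library 8 had 23. The normalized counts were 0, 2.63, 41.0 and 22.5. Both knockout libraries were above both parental ones, and knockout 2 exceeded knockout 8 by a ratio of 1.83 (1.06 to 3.20). The ratio of knockout to parental reads was 21.5 (7.02 to 107), and the log2 difference was 4.04 ± 1.02 (pooled SD, n = 2 and 2). Of the other 6 somatostatin system genes, 0 passed the filter. SSTR1, SSTR4, SSTR5 and the hormone SST had 0 reads in every library, and CORT, which encodes the related peptide cortistatin, had 2.10 to 4.88 normalized counts.

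GAP43 had the highest level per kilobase of exon among the 7 genes in both knockout libraries. It was expressed in the parental libraries, at 49.3 and 52.6 normalized counts, and had 1026 in knockout 2 and 198 in knockout 8. Parental values nearly coincided, and both knockout values were far above them. The ratio to the parental reads was 20.1 (16.4 to 24.8) for knockout library 2 and 3.87 (3.05 to 4.95) for number 8, and 5.18 (4.44 to 6.05) between these libraries. The log2 difference was 3.12 ± 1.18 (pooled SD, n = 2 and 2).

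DCLK1 had 3 reads in each parental library, while knockout library 2 had 112 and knockout library 8 had 19. Normalized counts were 3.29, 2.63, 118 and 18.6. The groups did not overlap, and knockout 2 was 6.35 times (3.88 to 10.9) as high as knockout 8. The ratio to the parental reads was 40.3 (18.0 to 112) in the first and 6.35 (2.44 to 19.4) in the second, and the log2 difference was 3.61 ± 1.31 (pooled SD, n = 2 and 2). RefSeq lists 3 start windows for DCLK1, and a count per gene does not tell the transcripts from them apart.

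LRRC55 rested almost wholly on 1 library. It had 2 reads in each parental library, 424 in knockout 2 and 9 in knockout 8, or 2.19, 1.75, 446 and 8.79 normalized counts. Knockout 2 was thus 50.8 times (26.5 to 112) as high as knockout 8. Against the parental reads the ratio was 229 (88.8 to 844) for knockout library 2 and 4.51 (1.26 to 20.04) for number 8. The log2 difference of the groups was 4.48 ± 2.76 (pooled SD, n = 2 and 2), and without knockout library 2 it was 1.72. LRRC55 did not pass the filter, since only 1 library reached 10.

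In all, 6 of the 7 genes had both knockout libraries above both parental ones, as did 16.3% of all 26484 rows, and CHRNB4 was the exception. Since the genes were chosen from this comparison, nothing is read from that count. CHRNA3, SSTR2 and DCLK1 were also over 2 above the parental mean on the log2 scale in both knockout libraries, as were 47 rows in all (0.177%). Among the 9771 rows with at most 6 reads over the parental libraries, a limit set after the values were seen, both knockout libraries lay above both parental ones in 6.8%, and both reached 10 normalized counts in 0.123%. CHRNA3, SSTR2, DCLK1 and LRRC55 belong to the former and all of these but LRRC55 to the latter, again by choice of the genes. CHRNA3, CHRNA5, SSTR2, GAP43 and DCLK1 passed the filter, and CHRNA3, SSTR2 and DCLK1 passed it only through the knockout libraries, so that they had to differ. Bulk libraries do not tell more cells that express a gene from more RNA of it per cell.

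The 5 genes with a large difference fell along 2 patterns. CHRNA3 and SSTR2 differed by a factor of at most 1.83 between the knockout libraries, with differences from the parental mean of 3.92 and 4.46 in knockout 2 and of 4.04 and 3.62 in knockout 8 (log2). GAP43, DCLK1 and LRRC55 were 4.31, 4.91 and 7.24 above in knockout 2 but 1.94, 2.31 and 1.72 above in knockout 8. Over all rows, 414 (1.56%) were more than 2 above the parental mean in knockout 2 and 180 (0.68%) in knockout 8. Per kilobase of exon, the order in knockout 2 was GAP43 (492), CHRNA5 (104), LRRC55 (82.5), DCLK1 (8.20), SSTR2 (5.23) and CHRNA3 (5.08). In knockout 8 it was GAP43 (94.998), CHRNA5 (92.2), CHRNA3 (5.53), SSTR2 (2.86), LRRC55 (1.62) and DCLK1 (1.29), so that CHRNA3 and SSTR2 came after LRRC55 and DCLK1 in the first and before them in the second. The knockout ranges of GAP43 and CHRNA5 overlapped, as did those of CHRNA3 and SSTR2.

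By root mean square distance of the log2 values, centred on the parental mean, over the 4 libraries, the gene nearest to CHRNA3 among the 15431 was MMP3, a matrix metalloproteinase (distance 0.34), followed by SSTR2 (0.37) and AREG, an EGF-family ligand (0.81). MMP3 had normalized counts of 0 and 0.877 in the parental pair and 13.7 and 25.4 in the knockout pair. For GAP43 the nearest were LOC101927120 (0.37), DCLK1 (0.37) and TIE1, an endothelial receptor kinase (0.40), with TIE1 at 19.7 and 18.4 against 276 and 115. For CHRNA5 the nearest gene was CCND3, cyclin D3 (0.02). These distances are a description over 4 libraries.

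The start windows of SSTR2, GAP43 and LRRC55 are shown to set a gene that was high in both knockout libraries beside 2 that were high mainly in knockout 2. DCLK1, which was also high mainly in knockout 2, is not printed. SSTR2 is at chr17:73164760-73165059, GAP43 at chr3:115623260-115623559 and LRRC55 at chr11:57181703-57182002, all on the plus strand of GRCh38.p14 and all from RefSeq. Capitals mark a GC box, the core of a cyclic AMP response element (TGACGT) or the right part of the RE1 element (GGACAGC), on either strand.
SSTR2: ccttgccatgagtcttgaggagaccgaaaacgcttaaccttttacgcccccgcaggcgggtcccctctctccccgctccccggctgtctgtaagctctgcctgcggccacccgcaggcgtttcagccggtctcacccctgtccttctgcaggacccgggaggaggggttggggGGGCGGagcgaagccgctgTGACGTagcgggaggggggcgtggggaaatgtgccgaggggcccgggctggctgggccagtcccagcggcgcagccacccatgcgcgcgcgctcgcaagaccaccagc
GAP43: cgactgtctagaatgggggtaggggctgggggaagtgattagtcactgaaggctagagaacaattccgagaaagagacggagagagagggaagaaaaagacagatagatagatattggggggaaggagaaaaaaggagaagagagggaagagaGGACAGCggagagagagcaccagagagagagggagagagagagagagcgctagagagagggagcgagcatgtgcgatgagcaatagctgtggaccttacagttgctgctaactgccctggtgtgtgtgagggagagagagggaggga
LRRC55: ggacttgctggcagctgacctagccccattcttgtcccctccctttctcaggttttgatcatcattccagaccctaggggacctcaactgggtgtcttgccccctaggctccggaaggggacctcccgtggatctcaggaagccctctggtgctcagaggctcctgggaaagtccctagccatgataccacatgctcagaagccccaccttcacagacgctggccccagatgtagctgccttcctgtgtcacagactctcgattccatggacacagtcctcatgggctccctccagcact
SSTR2 and DCLK1, like CHRNA3 and CHRNB4, had CpG-rich windows, with 27 CpG pairs each, whereas GAP43 had 7 and LRRC55 4. A GC box was found in CHRNA3, CHRNB4, SSTR2 and DCLK1 and in neither GAP43 nor LRRC55. By its levels DCLK1 went with GAP43 and LRRC55, so CpG pairs and GC boxes did not follow the 2 patterns. TGACGT, at -58 in SSTR2, occurred in 7.98% of all windows, and GGACAGC, at -97 in GAP43, in 6.03%. LRRC55 held 4 E-boxes, GAP43 2 and SSTR2 0. The AP-1 motif (TGANTCA), the promoter element TATAAA and the p53 half-site were in 0 of the 6 windows, against 7.71%, 11.5% and 6.63% of all windows. In all, 6 of the 7 genes matched the RefSeq table.

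**Figure D3:**
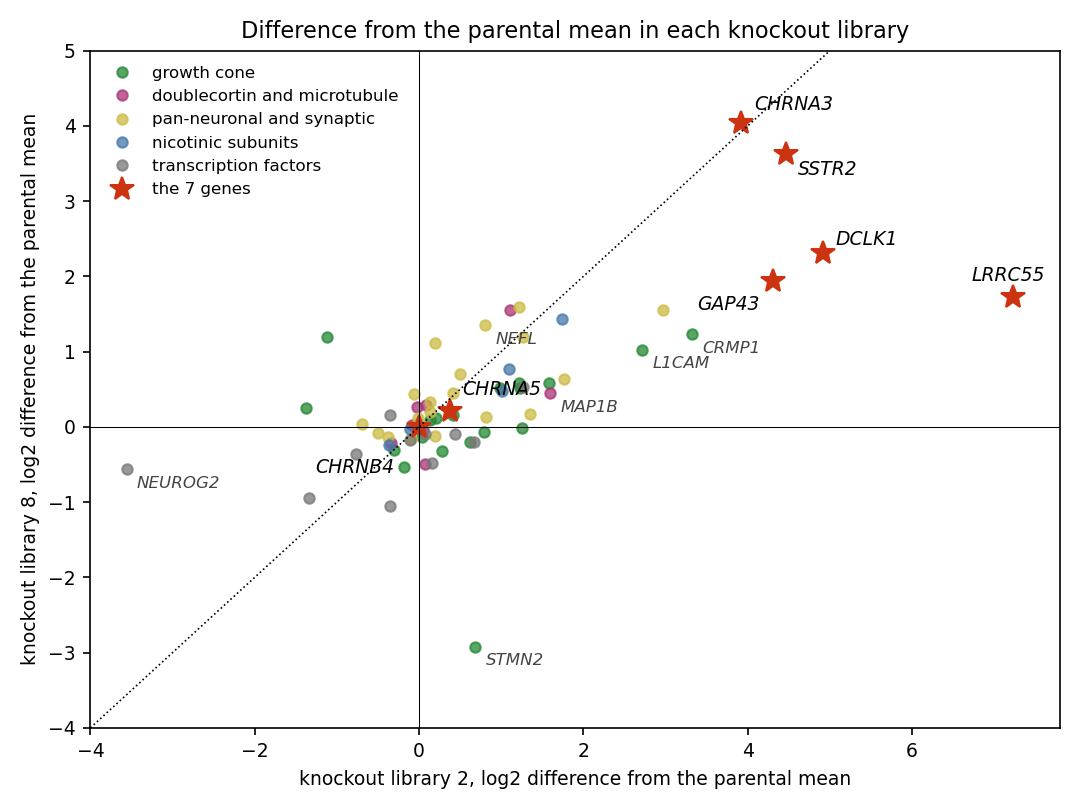
Difference from the parental mean, as log2(normalized count + 1), in knockout library 2 (horizontal) and knockout library 8 (vertical) for the 7 genes (stars) and for tested genes of 5 lists (circles); the dotted line marks equal differences. CHRNA3 lies on that line at about 4, while GAP43, DCLK1 and LRRC55 lie to its right, as do CRMP1 and L1CAM of the growth cone list.

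Growth cone and axon growth proteins, the group of GAP43, had 19 tested genes besides it. Both knockout libraries lay above both parental ones in 9 of them and below in 2 (22.8% and 23.7% of all genes tested). DESeq2 called 4 higher and 0 lower, beside 1.21% and 1.22% of 16330 genes called over the whole table, and limma called 0 of 15431 (0.0%). Unadjusted limma p-values under 0.05 went to 6 higher and 1 lower of the 19, and to 903 higher and 950 lower of all 15431 genes tested. The median log2 difference was 0.21, or 0.62 in knockout 2 and 0.11 in knockout 8, against -0.01 over all genes tested.

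CRMP1, a collapsin response mediator protein that steers axons, had normalized counts of 26.3 and 30.7 in the parental pair, 294 in knockout 2 and 68.4 in knockout 8 (DESeq2 adjusted p = 0.0110, limma adjusted p = 0.367). DPYSL2, of the same family, had 3547 and 3573 against 8353 and 5098 (DESeq2 adjusted p = 0.0129, limma 0.324). NRP1, a semaphorin co-receptor, had 1811 and 1758 against 3548 and 2553 (DESeq2 adjusted p = 0.0105, limma 0.281). SLIT2, a secreted guidance cue, had 316 and 345 against 769 and 494 (DESeq2 adjusted p = 0.0450, limma 0.317). In all 4 the knockout 2 value was the highest. L1CAM, an adhesion molecule of axons named after its values were seen, had 382 and 455 against 2734 and 851 (DESeq2 adjusted p = 0.155). STMN2 went apart between the knockout libraries, at 45.0 and 42.1 against 70.5 in knockout 2 and 4.88 in knockout 8. MARCKSL1, STMN1 and TUBB3, the most abundant of the list, were called by neither test. BASP1, a growth cone protein often named with GAP43, had 2.19, 0, 1.05 and 3.91.

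Of 8 tested doublecortin family and microtubule genes besides DCLK1, 3 had both knockout libraries above both parental ones and 1 both below. Over all genes tested the shares were 22.8% and 23.7%. DESeq2 called 1 higher and 0 lower (1.21% and 1.22% of 16330 genes), and limma called 0. By unadjusted limma p under 0.05, 1 was higher and 0 lower (903 and 950 of all 15431). MAP1B, a microtubule-associated protein of growing axons, had 2649 and 2303 against 7446 and 3365 (DESeq2 adjusted p = 0.0421, limma 0.419). DCLK2, the nearest relative of DCLK1, had 82.2 and 83.3 against 81.0 and 99.6, so the groups overlapped. DCX, doublecortin itself, had 0 reads in 3 libraries and 10.5 normalized counts in knockout 2. Median log2 difference for the list was 0.06.

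In the BK channel list, 3 genes besides LRRC55 were tested and none was called by limma or DESeq2 (0 at an unadjusted limma p under 0.05). KCNMA1, the pore-forming subunit, had 1452 and 1298 in the parental pair, 897 in knockout 2 and 2072 in knockout 8, on either side of the parental pair. The other leucine-rich gamma subunits LRRC38 and LRRC52 had 0 reads in all libraries, and LRRC26 had 1.10 normalized counts in parental library 1 and 0 elsewhere.

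Of 20 tested pan-neuronal and synaptic genes, 10 had both knockout libraries above both parental ones and 2 both below (22.8% and 23.7% of all genes tested), and the median log2 difference was 0.33. DESeq2 called 1 higher and 0 lower (1.21% and 1.22% of 16330 genes), and limma called 0. By unadjusted limma p under 0.05, 5 were higher and 0 lower (903 and 950 of all 15431). NEFL, neurofilament light chain, had 515 and 596 against 965 and 1413 (DESeq2 adjusted p = 0.00116, limma 0.259). The secretory granule protein CHGB, named after its values were seen, had 45.0 and 36.0 against 97.9 and 93.8 (DESeq2 adjusted p = 0.134). SYT4, NEFH, INA and DBH had 0 reads in every library, and the neuronal nuclear marker RBFOX3 went from 9.87 and 11.4 to 0 and 0.977.

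Of 11 tested neuronal transcription factors, 1 had both knockout libraries above both parental ones and 5 had both below. Over all genes tested the shares were 22.8% and 23.7%. DESeq2 called 0 of 11 tested higher and 1 lower (1.21% and 1.22% of 16330 genes), and limma called 0. By unadjusted limma p under 0.05, 0 were higher and 3 lower (903 and 950 of all 15431). ISL1, a factor of motor and autonomic neurons, had 246 and 270 against 101 and 133 (DESeq2 adjusted p = 0.0122, limma 0.248). NEUROG2, a proneural factor, had 227 and 171 against 15.8 and 133 (DESeq2 adjusted p = 0.612). PHOX2A, a factor of autonomic neurons, had 0 reads in every library. REST, the repressor of neuronal genes, had 2114 and 2066 against 2336 and 2191 (limma adjusted p = 0.612), and none of its 16 listed corepressors was called by limma or DESeq2 (of the list of 17, 1 was higher and 0 lower by unadjusted limma p under 0.05).

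Markers of other cell types were summed in each library. The summed level of the 13 neural crest and Schwann cell markers was 48081 to 51263 in the parental libraries and 41827 to 44181 in the knockout ones. The 9 fibroblast markers summed to 1304 to 1356 and to 1400 to 2338, with COL3A1 at most 1.10. PDGFRA of that list had 355 and 284 in the parental pair, 1034 in knockout 2 and 368 in knockout 8, and DCN had 10.96 and 14.9 against 30.5 and 27.3 (limma adjusted p = 0.528 and 0.347). Glial markers, 9 genes, summed to 453 to 461 and to 389 to 405, with AQP4 at under 1. OLIG2 was the most abundant of them, at 243 and 265 in the parental pair and 180 and 195 in the knockout pair. SLC1A2, a glutamate transporter of that list, had 4.39 and 5.26 in the parental pair, 47.4 in knockout 2 and 14.7 in knockout 8 (limma adjusted p = 0.330), so that it too was higher mainly in knockout 2. Epithelial markers, 9 genes, summed to 8391 to 8502 and to 7225 to 7885, with CDH1 at 0. Most of that sum was KRT18, at 6548 and 6493.5 in the parental pair and 6126 and 5569 in the knockout pair. Blood cell markers, 7 genes, summed to 1573 to 1801 in the parental libraries, 2469 in knockout 2 and 1241 in knockout 8, with HBB at 0. Most of that sum was CD68, at 1704 and 1448 in the parental pair, 2343 in knockout 2 and 968 in knockout 8. Melanocyte markers, 13 genes, summed to 64036 to 66202 and to 53177 to 55857. Of the 9 tested, DESeq2 called 0 higher and 1 lower, beside 1.21% and 1.22% of 16330 genes. The part of other cell types in the differences of the 7 genes was not tested.

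Genes next to the 5 are given by position. Since the 5 were chosen for a large difference, smaller ones in most neighbours follow from that choice. The nearest expressed genes beside CHRNA3 other than CHRNA5 were PSMA4, HYKK, MORF4L1, ADAMTS7 and CTSH, with log2 differences of 0.18, -0.66, 0.24, 1.11 and 0.11 in knockout 2 and 0.03, -0.41, 0.03, -0.13 and -0.34 in knockout 8. Of 7 tested genes in the 15q25 list besides CHRNA3 and CHRNA5, DESeq2 and limma called none (0 at an unadjusted limma p under 0.05). CRABP1, a retinoic acid binding protein encoded 281 kb downstream, had 7.67 and 3.51 normalized counts, then 59.99 in knockout 2 and 0 in knockout 8.

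APLNR, the apelin receptor, starts 55.6 kb from LRRC55 and had normalized counts of 4.39 and 1.75 in the parental pair, 88.4 in knockout 2 and 9.77 in knockout 8, so its difference was 4.54 in knockout 2 and 1.48 in knockout 8 on the log2 scale, beside 7.24 and 1.72 for LRRC55. TNKS1BP1 and SSRP1, the next expressed genes, were 0.40 and 0.09 above the parental mean in knockout 2. Near SSTR2, the zinc transporter gene SLC39A11 was 0.91 and 0.60 above and LINC00511 1.33 and 0.59 above, in knockout 2 and 8. SDK2, an adhesion molecule 479 kb away, was 3.39 above in knockout 2 and 0.43 in knockout 8. Near DCLK1, the cyclin gene CCNA1 was 1.59 and 1.70 above. GAP43 had 1 gene with a mean of at least 10 normalized counts within 1000 kb, ZBTB20, at -0.07 and -0.10, and the next on the other side, LSAMP, was 1.57 and 0.43 above. These neighbours were chosen by position, and those not in the lists were not tested separately.

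Over the 40 nearest genes with a mean of at least 100 normalized counts, medians lay near 0 around every one of the 5. In knockout 2 they were -0.01 around CHRNA3, -0.19 around SSTR2, 0.01 around GAP43, 0.07 around DCLK1 and -0.03 around LRRC55. Those in knockout 8 were -0.02, 0.01, 0.01, 0.03 and 0.00. Over the shorter span of 1000 kb on each side of SSTR2, however, the 7 genes with a mean of at least 10 had a median of 0.72 in knockout 2 and 0.12 in knockout 8.

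**Figure D4:**
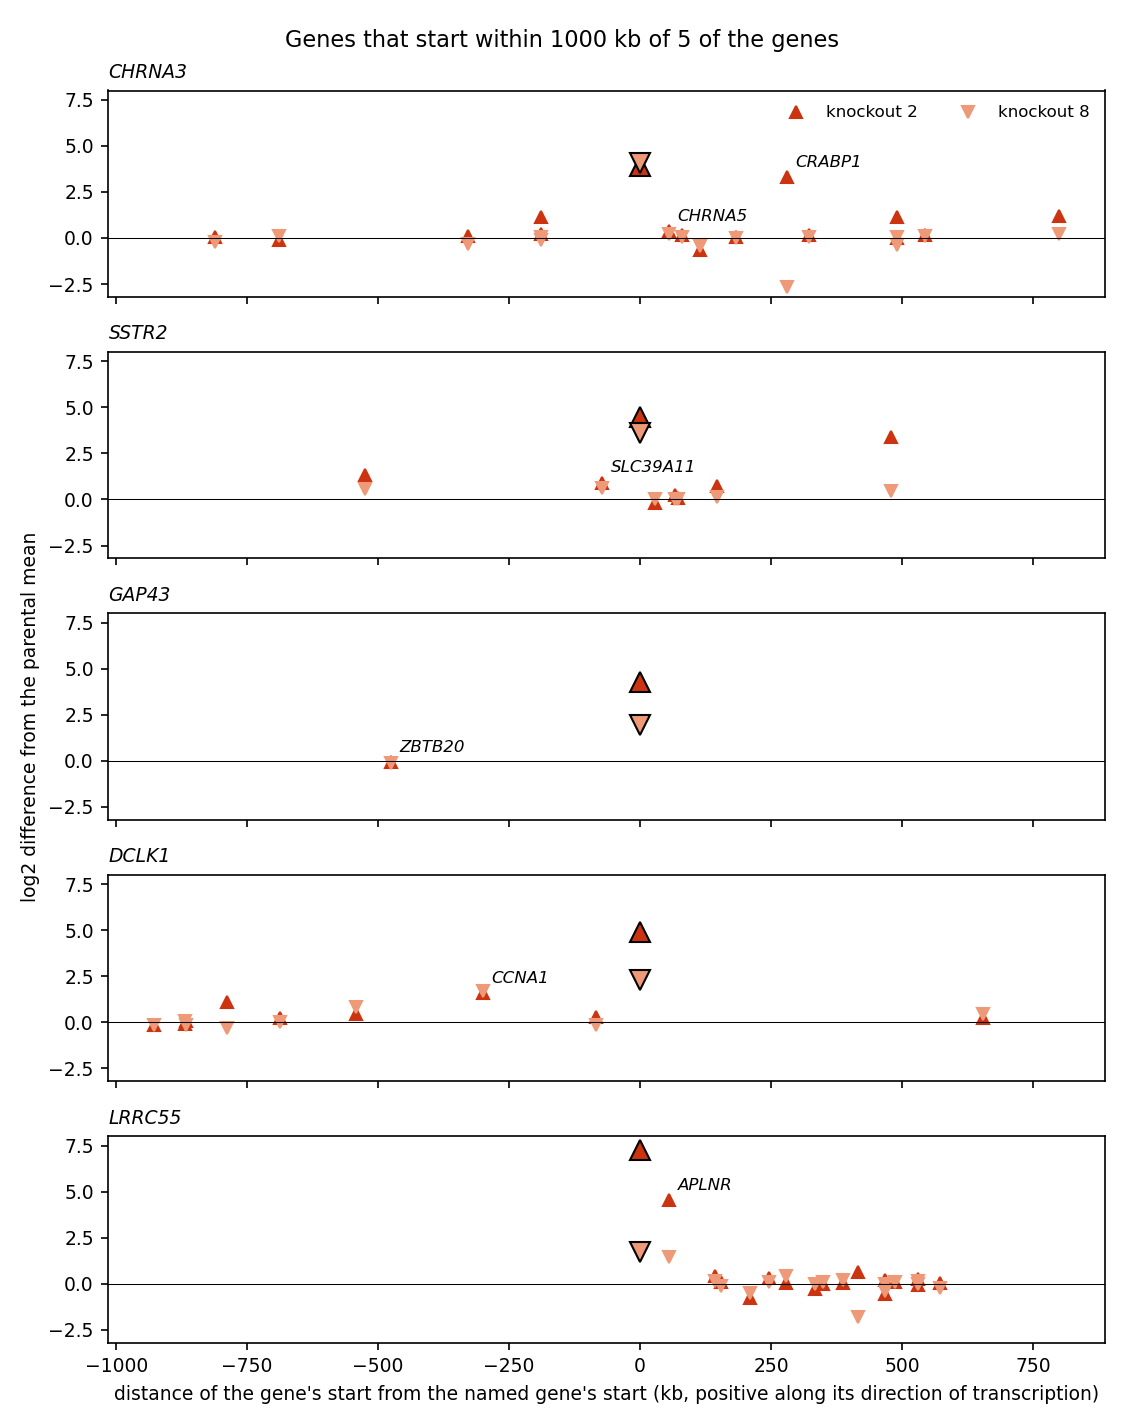
Difference from the parental mean, as log2(normalized count + 1), of genes with a mean of at least 10 normalized counts, against the distance of their starts from the start of CHRNA3, SSTR2, GAP43, DCLK1 or LRRC55 (kb; outlined symbols at 0 are the named gene; triangles up, knockout 2; down, knockout 8). Among those away from 0 are APLNR beside LRRC55 (4.54 in knockout 2), SDK2 (3.39) and LINC00511 (1.33) near SSTR2, CCNA1 near DCLK1 (1.59), CRABP1 near CHRNA3 (3.29, and -2.64 in knockout 8) and SERPING1 near LRRC55 (-1.82 in knockout 8).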

How the data were processed

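RNA from 2 parental and 2 p53 knockout A375 libraries was measured. The deposited table holds a normalized signal per gene: the authors' read counts per gene over 1 size factor for each library, as the values show (100% of values in each library are whole multiples of its step within 0.001). The submitters' processing notes name hg38 and the tools deepTools, DESeq2, HTSeq, Picard and STAR. Their versions, the annotation and the strand setting were not given in those sources. Whole reads were recovered from the steps, 29230554 to 36331894 per library.

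Values are normalized counts. Genes were tested with limma-trend (limma 3.58.1) on the log2(normalized count + 1) scale, two-sided, over 15431 genes with at least 10 in at least 2 libraries, Benjamini-Hochberg adjusted, threshold 0.05; fold changes on that scale understate changes of low genes. DESeq2 1.42.0, edgeR 4.0.16 and limma-voom on the recovered reads were alternatives, as were another pseudocount, filters, scalings and leaving out each library. The fits were tested on simulated data. With 2 libraries against 2, 33.3% is the smallest p of an exact permutation test, which was therefore left out. Intervals are exact binomial (95%) on reads; a floor is 3 reads.

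The members and the 18 gene lists (247 entries, all found, 1 by an older symbol) were chosen with earlier results of these data known. Named genes are the 7, list members as the fixed rule gives them (called genes and the most abundant), neighbours by position and the nearest patterns; others were named after their values were seen. As limma called 0 genes, the rule used DESeq2 calls. Positions and exon lengths come from GENCODE 29 (GRCh38) for 23823 symbols with 1 locus, and start windows from RefSeq (GRCh38.p14). Motifs were chosen after the windows were seen. Some items the rule covers are not reported here.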

Additional observations from a re-analysis of the deposited data

How the results depend on the processing

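With 2 libraries per group and 50 knockout reads of CHRNA3 in all, small differences were not detectable. Over all genes limma called 0 higher and 0 lower, as it did with a pseudocount of 0.1, under both other filters, by edgeR and by limma-voom, while DESeq2 called 198 and 200. Leaving out each library in turn gave 0 to 2421 higher and 0 to 2602 lower: 0 and 0 without either parental library, 1309 and 1587 without knockout library 2, and 2421 and 2602 without knockout library 8, where the lone knockout library is assumed to vary like the parental pair. For the 237 listed genes other than the 7, the counts were 0 and 0 by limma and 6 and 14 by DESeq2, and 0 to 42 higher and 0 to 43 lower on leaving out a library, both largest without knockout library 8. The cause was not tested.

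The number of the 7 genes with every knockout library above every parental one was 6 under TMM factors and under library totals. Leaving out a library cannot lower that number, nor move a log2 difference by more than the pooled SD of 2 libraries per group, so it says nothing of stability here. With a pseudocount of 0.1 CHRNA3 was 5.88 and SSTR2 5.87. Without knockout library 2 the log2 difference was 1.94 for GAP43, 2.31 for DCLK1 and 1.72 for LRRC55, and without knockout library 8 it was 4.31, 4.91 and 7.24. No paired analysis was possible because the labels number the knockout samples 1 and 2 but their columns are numbered 2 and 8.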

Other observations

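Few genes went from near 0 to clear detection in both knockout libraries. Of 9771 rows with at most 6 reads over the 2 parental libraries, a limit chosen after the values were seen, 12 (0.123%) had at least 10 normalized counts in both knockout libraries. They were CHRNA3, SSTR2 and DCLK1 with KCNV1, SLC7A3, EPSTI1, FAM196B, TGM4, MMP3, LINC00525, GPR143 and TRPA1. TRPA1, a cation channel of sensory neurons, had 4.39 and 0 in the parental libraries and 11.6 and 46.9 in knockout libraries 2 and 8. GPR143, a receptor of pigment cells, had 3.29 and 2.63 against 13.7 and 18.6. These 12 were selected by their values and carry no test.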
